A study of Sus scrofa with 9 samples.

Results

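Whole blood RNA from male Clawn miniature pigs, specific pathogen free animals of a small laboratory breed, was measured on Agilent porcine arrays around a single oral dose of azide. Blood was taken before feeding (0 h, no azide) and at 6 h and 24 h after 300 µg/kg, given as 0.01 of the LD50, on 9 arrays, 3 per time. The salt of azide is not stated. All 3 groups share breed, sex and tissue; the age appears as 7 months in one label field but as 7 weeks in a second. The design has no pigs without azide at the later times. Whether a replicate number stands for one pig followed over time is not stated either, and the p-values therefore describe only the variation among these samples, part of which may be technical. The genes described here code for proteins of the mitochondrial ribosome and of the machinery that imports proteins into mitochondria. They were found by the wording of the probe descriptions ("mitochondrial ribosomal protein", "39S ribosomal", "28S ribosomal", "mitochondrial import" or the translocases of the inner and outer mitochondrial membrane). Of 43603 probes, 29 carried such wording. Of these, 5 describe nuclear ribosomal RNA genes of the rat, which the phrase "28S ribosomal" also catches; they do not belong to the mitochondrial ribosome and were set apart. The other 24 probes stand for 21 genes, out of 1867 genes that could be named on the array: 11 genes of the large subunit (14 probes), 6 of the small subunit (6 probes), 1 of outer membrane import and 3 of inner membrane import.

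Mitochondria keep a small genome of their own and translate its messenger RNAs, which code for parts of the oxidative phosphorylation complexes, on a dedicated ribosome. The proteins of that ribosome are encoded in the nucleus, made in the cytosol and imported through the TOM complex of the outer membrane; the TIM22 complex and small chaperones of the intermembrane space then carry some imported proteins into the inner membrane. Azide blocks cytochrome c oxidase, which contains subunits made on the mitochondrial ribosome. White blood cells and platelets contain mitochondria, whereas mature red cells of mammals have lost theirs.

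Each probe is a DNA strand of 60 bases, printed here in part because it is the physical object behind every value below. The last 30 bases, 5′ to 3′ as the scanner files give them, are shown for probes on which the results below turn, with both probes of MRPL4 and of MRPL14, whose sequences overlap. Capitals mark AATAAA, the usual polyadenylation signal near the 3′ end of messenger RNAs, where it lies wholly within the stretch shown; in the MRPL3 probe it spans the start of that stretch and is not marked.
MRPL57: atgtAATAAAaatagtcaaagagtaaaaaa
MRPL3, tested probe: aaataaccaggaattgtaggccttagtacc
MRPS9: ttagcatgtctgtgaaaccttaaaatactt
MRPS16: tctgtAATAAAtgtcaaatctagactctca
MRPL4, probe 1: tgagcaAATAAActttcttaaaacaccgaa
MRPL4, probe 2: gtagtaggtaaatgagcaAATAAActttct
MRPL14, probe 1: atttataaaggtacagtggagtctcaaaaa
MRPL14, probe 2: aaaggtacagtggaatctcacttacaaaaa
The letters AATAAA occurred in 7 of the 24 member probes (29.2%) and in 5279 of all 43603 probes (12.1%). On the opposite strand they occurred in 2 member probes (8.33%) and in 4.63% of all probes. The median GC content was 38.33% in the members and 40% in all probes. The MRPL4 probes share a run of 48 bases and the MRPL14 probes one of 44 bases, so the probes of a pair are not independent readings. Both MRPL4 probes hold the same AATAAA within their shared run, and both are counted among the 7. The counts below are of probes and include both of each pair, so 14 tested probes stand for 12 genes. The 2 MRPL3 probes share only 7 bases in a row.

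Except for the summed levels of cell markers, all values are levels on 1 scale. It is the log2 of the background-subtracted intensity minus the 75th percentile of its array, so 0 is the intensity at that percentile. Apart from those sums and from medians over markers, levels are compared between arrays for 1 probe. Brightness across probes served to choose which members to name and which probe stands for a gene in the gene and marker lists. It also set apart the brightest tested probes, used as a background for MRPL57 and ROMO1. Between 39.94% and 56.6% of the spots lay well above background, with the highest share on replicate 3 at 24 h, and the 75th percentile itself ran from 5.79 to 7.69 on the log2 scale. Each time lay on its own slide, so slide and time cannot be told apart. In whole blood, fewer cells of a type and less RNA per cell cannot be told apart either. Of the marker genes listed for blood cells, 9 of 16 T cell genes, 5 of 11 monocyte genes, 3 of 14 neutrophil genes, 5 of 10 platelet genes, 3 of 9 cytotoxic cell genes, 1 of 9 B cell genes and 1 of 11 red cell genes had a named probe bright enough to test; only 6.59% of all probes have a gene name here.

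Most members were bright enough to follow. A probe was tested if some time had all its 3 arrays well above background, which 14 of the 24 member probes (58.3%, 12 of 21 genes) and 19783 of 43596 probes (45.4%) did. Of the 14, all but MRPL36 lay above background on all 9 arrays. The tested set holds 10 probes of 8 large subunit genes, 3 small subunit genes and 1 import gene, TIMM22. No member probe was saturated. Detection went with how much of the named protein the probe's sequence cluster matched, as its description gives it. Among 13 member probes with a match of 80% or more, 11 were tested; among 11 with less, 3 were. Over all 8593 probes with a stated match these shares were 63.7% and 46.9%. The name MRPL15 rests on a match of 5% to a chicken protein and MRPL45 on 7% of a frog protein, so these names are uncertain; 12 of the 24 probes were named by a human protein, 5 by a bovine, 3 by a mouse and 2 by a rat protein.

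**Figure D1:**
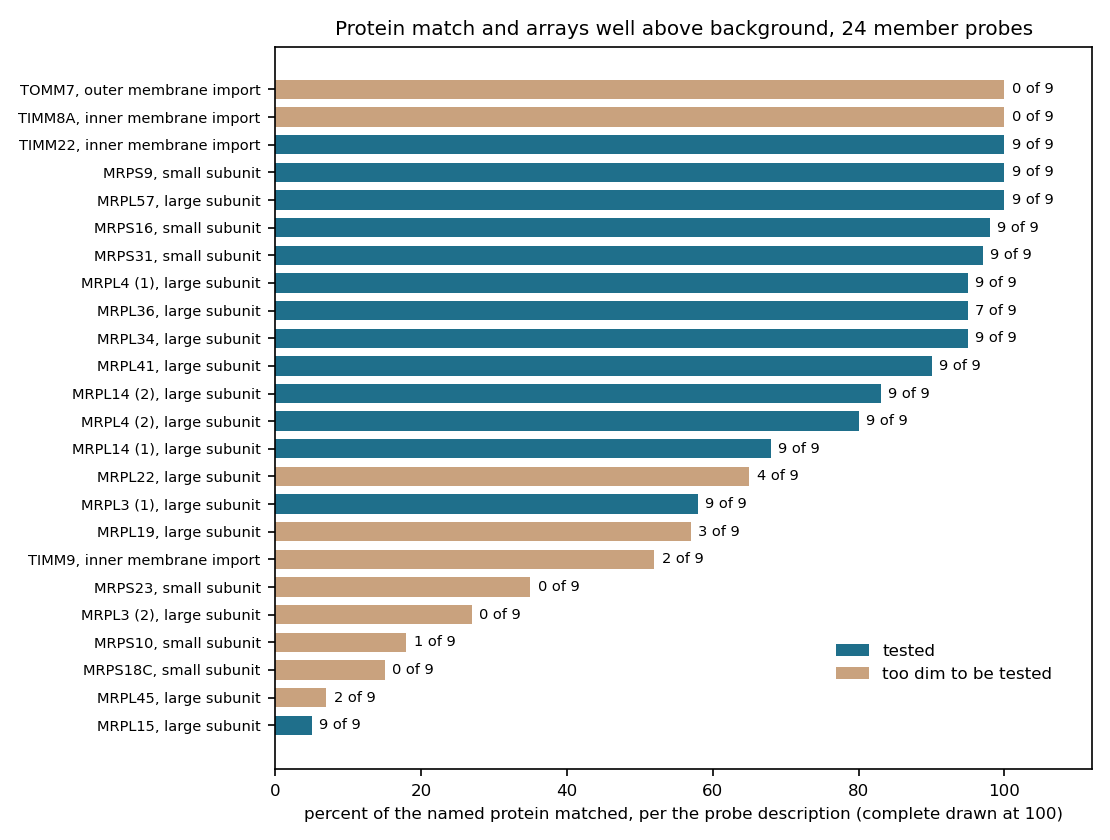
Bars give the percent of the named protein that the description of each of the 24 member probes states as matched, with blue bars for the 14 tested probes and tan bars for the 10 too dim to be tested; the number at each bar is how many of 9 arrays read the probe well above background. The long bars are mostly blue, with TOMM7 and TIMM8A as dim exceptions at a complete match and MRPL15 as a bright exception at 5%.

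The 10 dim member probes had levels between -6.41 and -1.82, near or under the background of their arrays. The probes of TIMM8A, which helps to chaperone inner membrane proteins, of TOMM7, of MRPS18C and MRPS23, and the second MRPL3 probe lay above background on none of 9 arrays. MRPS10 did so on 1 array, TIMM9 and MRPL45 on 2 each, MRPL19 on 3 and MRPL22 on 4. MRPL22, a protein near the exit of the ribosome's tunnel, read -1.82, -3.21 and -2.32 before feeding, -4.93, -3.29 and -3.72 at 6 h and -2.66, -2.44 and -2.14 at 24 h. It was above background on 2 of 3 arrays before feeding, none at 6 h and 2 at 24 h, so its 6 h values are only upper limits. MRPL19 showed 2, 0 and 1 arrays above background in the same order. MRPL45, which ties the ribosome to the inner membrane, was above background on 2 arrays at 24 h and on none before. These probes were not tested, and they are named to account for every member. The 5 nuclear ribosomal RNA probes were dim too: 4 were above background on no array and the fifth on 3 arrays.

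MRPL57, a large subunit protein found only in mitochondrial ribosomes, was lower at both later times by group mean. It read 7.56, 6.91 and 6.79 before feeding, 6.28, 7.23 and 6.57 at 6 h, and 6.20, 6.12 and 6.69 at 24 h. All 3 arrays at 24 h lay below all 3 before feeding, while the 6 h arrays overlapped both. Such a separation downwards at 24 h happened in 19.0% of all tested probes. It happened in 1240 of the 3957 tested probes from the 80th percentile of mean signal up, where the MRPL57 probe lies. At 24 h the difference from before feeding was -0.75 ± 0.34 (SE, n = 3 and 3; 1.68-fold lower, 95% interval -1.50 to 0.0020), and it did not pass limma's test (adjusted p = 0.361). At 6 h it was -0.39 ± 0.34 (adjusted p = 0.483, limma). The sign at 24 h turned with spike-in scaling, under which the difference was 0.26, and leaving out arrays or other fits gave as low as -0.93.

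MRPL14, a conserved large subunit protein that faces the small subunit, was lower on every 24 h array than on any other array. Its probe 1 read 1.58, 1.83 and 1.52 before feeding, 1.69, 1.87 and 1.59 at 6 h, and 1.20, 1.27 and 1.26 at 24 h. Probe 2 read 1.59, 1.85 and 1.57, then 1.58, 1.72 and 1.52, then 1.18, 1.22 and 1.34. On both probes every 24 h array lay below every array of the other times, while before feeding and 6 h overlapped. Among all tested probes, 19.0% had all 24 h arrays below those before feeding and 16.5% had them below those at 6 h. The share below both was not counted. Only spike-in scaling turned the sign of the 24 h difference, to 0.60 and 0.58. Against before feeding the 24 h difference was -0.40 ± 0.24 for probe 1 and -0.43 ± 0.24 for probe 2 (1.32-fold and 1.34-fold lower; adjusted p = 0.481 and 0.456, limma), so neither passed. At 6 h the probes had opposite signs, 0.07 ± 0.24 and -0.06 ± 0.24.

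MRPL3, which lies by the catalytic centre of the large subunit, had its lowest group mean at 6 h. The tested probe read 1.22, 0.46 and 1.25 before feeding, -0.04, 0.49 and -0.32 at 6 h, and 1.07, 0.95 and 1.80 at 24 h. Replicate 2 before feeding and replicate 2 at 6 h were level with each other, and the other arrays at 6 h were lower. All 24 h arrays lay above all 6 h arrays, which happened in 10.0% of all tested probes. The 6 h difference from before feeding was -0.93 ± 0.35 (1.91-fold lower, 95% interval -1.71 to -0.15; adjusted p = 0.147, limma), and that of 24 h from 6 h was 1.23 ± 0.35 (2.34-fold higher, 95% interval 0.44 to 2.01; adjusted p = 0.118, limma). Neither passed. Where an alternative could change these values, they ran from -1.23 to -0.61 and from 0.96 to 2.00. Without replicate 2 at 6 h, 24 h against 6 h was 1.45 with an adjusted p of 0.0464 by limma, which is past the threshold.

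MRPL4, a large subunit protein that reaches into the exit tunnel, had overlapping groups at all times. Probe 1 read 3.31, 3.30 and 3.61 before feeding, 2.92, 3.69 and 2.93 at 6 h, and 3.04, 3.27 and 3.56 at 24 h. Probe 2 read 4.20, 4.13 and 4.56, then 3.91, 4.60 and 3.85, then 4.01, 4.16 and 4.44. At 6 h replicate 2 was the highest of all arrays for both probes and the other arrays at 6 h were the lowest. The 6 h differences were -0.23 ± 0.30 and -0.18 ± 0.30, and the 24 h differences -0.11 ± 0.30 and -0.09 ± 0.30; none passed.

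The remaining large subunit members had wide or small differences. MRPL41, found only in mitochondrial ribosomes, read 5.94, 4.60 and 5.51 before feeding, 5.99, 4.46 and 5.59 at 6 h, and 5.53, 4.01 and 5.04 at 24 h. Replicate 2 was the lowest at each time, by about as much each time, and within every replicate number the 24 h value was the lowest. The difference of 24 h from before feeding was -0.49 ± 0.51 (1.40-fold lower, adjusted p = 0.694, limma). With the replicate number as a block in the fit, the adjusted p was 0.342 (limma), which did not pass either. MRPL34, a small protein conserved from bacteria, read 3.25, 2.63 and 2.91, then 2.67, 2.98 and 3.02, then 2.56, 2.58 and 3.16. Its groups overlapped and its differences were -0.04 ± 0.29 at 6 h and -0.17 ± 0.29 at 24 h. MRPL36, another small conserved protein, read -2.72, -1.95 and -3.84, then -1.71, -1.75 and -3.41, then -1.21, -1.78 and -3.34. Replicate 3 was its lowest array at each time, and 2 of those arrays were not well above background. Its differences of 0.55 ± 0.66 and 0.73 ± 0.66 had the largest errors of the 14 probes. The probe named MRPL15 read -0.66, -1.65 and -0.60, then -1.48, -1.50 and -0.94, then -0.82, -0.72 and -0.68. All 24 h arrays lay above all 6 h arrays (0.57 ± 0.33, adjusted p = 0.345, limma), which happened in 10.0% of all tested probes, and before feeding overlapped both.

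**Figure D2:**
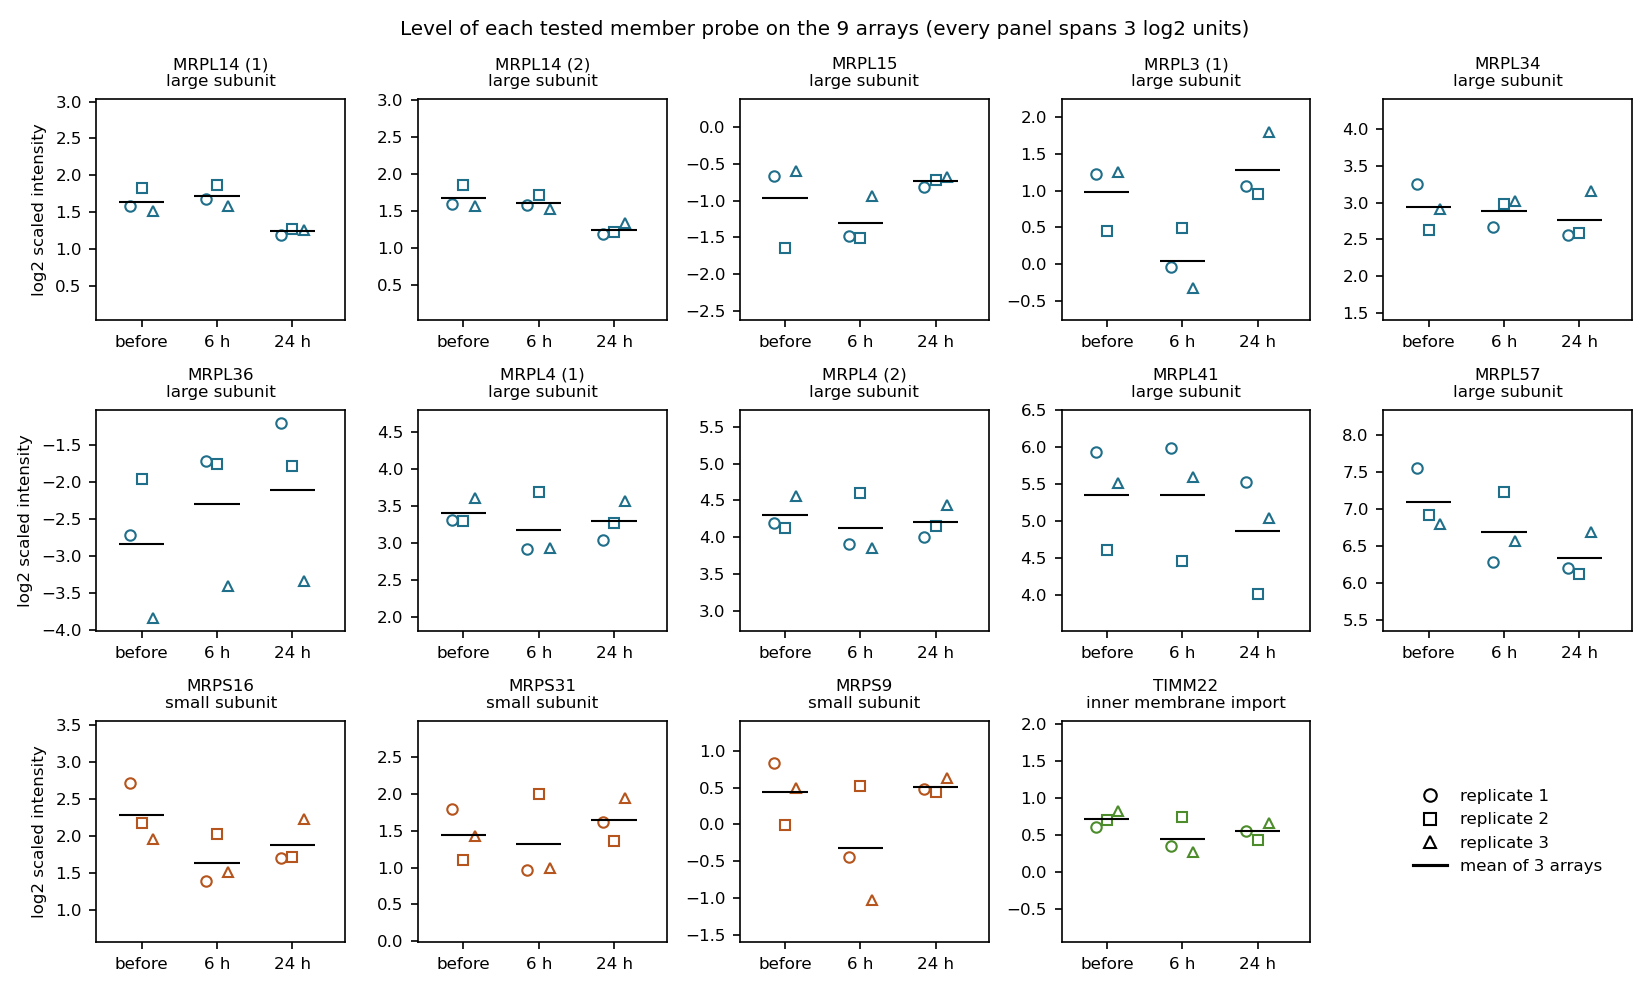
Levels (log2 intensity minus the array's 75th percentile) of the 14 tested member probes; circles, squares and triangles are replicates 1, 2 and 3 at each time, the bar is the mean of 3 arrays, and every panel spans 3 log2 units. Both MRPL14 panels show the 24 h arrays below the rest, MRPL3 and MRPS9 show 2 of the 3 arrays at 6 h lower than the other arrays, and MRPL41 and MRPL36 show gaps between replicate numbers that recur at each time.

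All 3 tested small subunit members had their lowest group mean at 6 h. MRPS9, a conserved protein in the head of the small subunit, read 0.83, -0.01 and 0.49 before feeding, -0.44, 0.52 and -1.03 at 6 h, and 0.47, 0.44 and 0.63 at 24 h. Replicates 1 and 3 at 6 h lay below all other arrays, and replicate 2 at 6 h lay among them. The difference of 6 h from before feeding was -0.76 ± 0.39 (1.69-fold lower; adjusted p = 0.250, limma) and that of 24 h from 6 h was 0.83 ± 0.39 (adjusted p = 0.249, limma). Without replicate 2 at 6 h these were -1.17 (adjusted p = 0.0488, limma) and 1.25 (adjusted p = 0.0482, limma), both past the threshold, so this 1 array decides the call. MRPS16, a conserved protein whose human gene is mutated in a respiratory chain disorder, read 2.72, 2.18 and 1.95, then 1.39, 2.02 and 1.50, then 1.70, 1.72 and 2.22. Only replicate 2 at 6 h reached the range of the arrays before feeding. Its 6 h difference was -0.65 ± 0.31 (1.56-fold lower, 95% interval -1.34 to 0.044; adjusted p = 0.221, limma). MRPS31, found only in mitochondrial ribosomes, read 1.79, 1.10 and 1.43, then 0.97, 2.00 and 0.99, then 1.62, 1.36 and 1.94. Replicate 2 was its highest array at 6 h and its lowest at the other times. Its differences were -0.12 ± 0.35 at 6 h and 0.20 ± 0.35 at 24 h. With spike-in scaling its 6 h difference was 0.11, so its lowest group mean was no longer at 6 h.

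Of the import machinery, TIMM22, the channel that inserts metabolite carriers into the inner membrane, was the only tested member. It read 0.61, 0.71 and 0.83 before feeding, 0.35, 0.74 and 0.27 at 6 h, and 0.55, 0.44 and 0.67 at 24 h. Its groups overlapped, with differences of -0.26 ± 0.25 at 6 h and -0.16 ± 0.25 at 24 h. TOMM7, a small subunit of the outer membrane channel, was at background by the probe that carries the import wording, while 2 further TOMM7 probes outside that wording lay above background on all 9 arrays. One of these read 3.61, 3.27 and 3.73 before feeding, 2.93, 3.06 and 2.84 at 6 h, and 3.04, 3.22 and 3.72 at 24 h. All its 6 h arrays lay below all arrays before feeding (-0.59 ± 0.28, adjusted p = 0.208, limma), which happened in 10.6% of all tested probes. The other read 0.64 ± 0.27 lower at 6 h (adjusted p = 0.180, limma); these probes share a run of 54 bases with each other and 6 with the dim probe.

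At 6 h most members were lower than before feeding, and none passed the test. Of the 14 tested probes 12 had a negative difference (85.7%, beside 47.4% of all tested probes), with a median of -0.20 beside 0.05 over all tested probes and a range from -0.93 for MRPL3 to 0.55 for MRPL36. With arrays scaled on spike-in probes, 6 of the 14 were lower and the median was 0.03, while the median of all tested probes moved to 0.28; this scaling adds the same amount to every probe, so the gap of 0.25 between the medians is fixed by construction. By limma 0 of 14 passed an adjusted p of 0.05, beside 0.0253% of all probes, and 1 of 14 (MRPL3, 7.14%) had an unadjusted p under 0.05, beside 25.5%. In no member did the 6 h arrays lie wholly below or wholly above those before feeding, which happened in 10.6% of all probes (lower) and 16.0% (higher). Without replicate 2 at 6 h, 1 member (MRPS9) passed, beside 12.1% of all probes. The median of -0.20 became -0.41 without replicate 2 at 6 h, and -0.12 without replicate 3 at 6 h or without replicate 3 before feeding. Without replicate 1 before feeding, 9 of 14 members were lower.

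**Figure D3:**
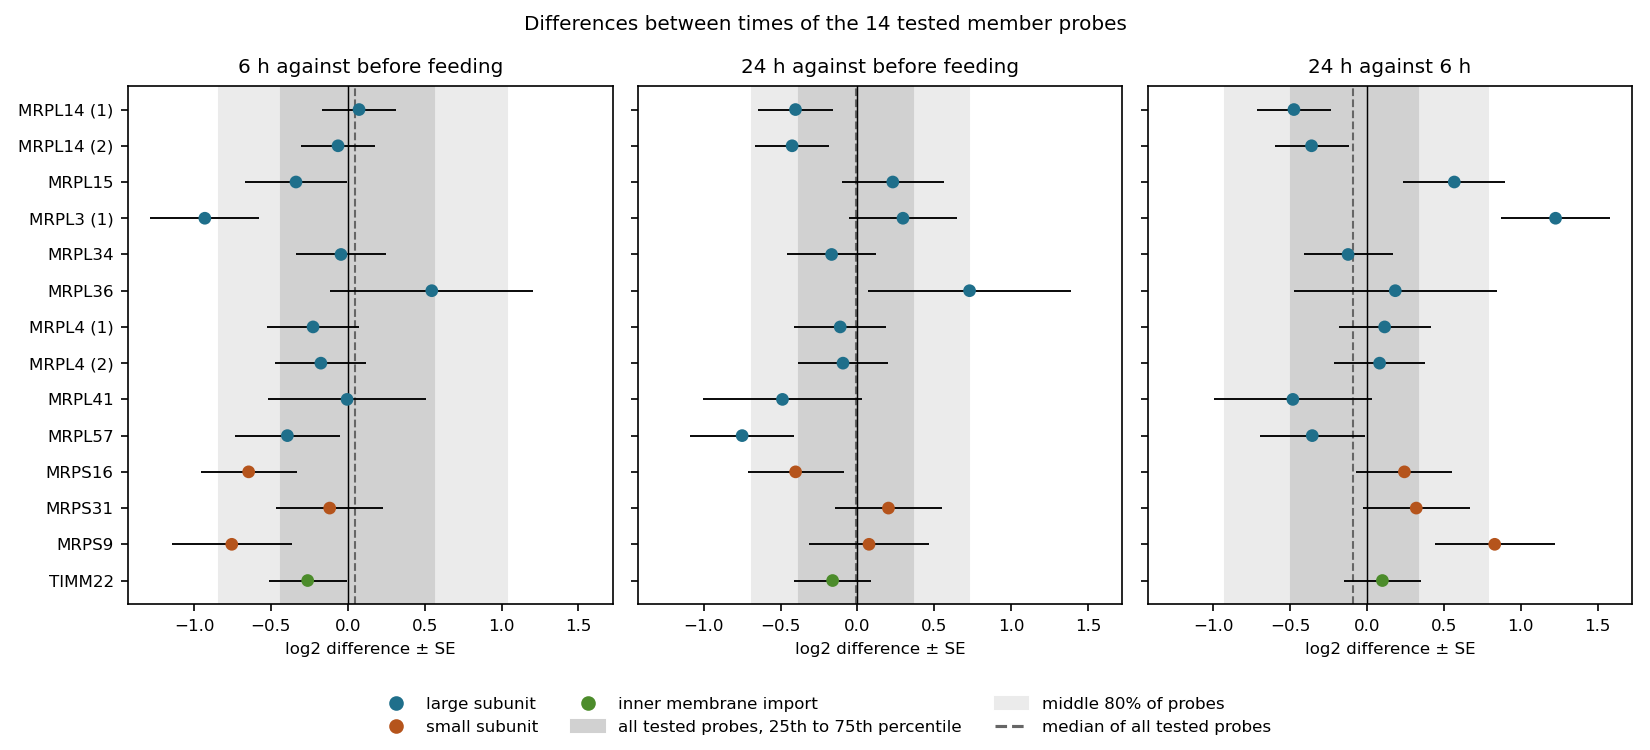
Log2 differences (points) with their standard errors (lines) for the 14 tested member probes in the 3 comparisons, coloured by class, over the spread of all 19783 tested probes (grey bands) and their median (dashed line). At 6 h 12 of 14 points lie left of 0, at 24 h 9 of 14, and at 24 h against 6 h 9 of 14 lie right of 0; most points lie within the light band, the middle 80% of all probes.

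At 24 h the members were divided. Against before feeding 9 of 14 were lower (64.3%, beside 50.9% of all tested probes), with a median of -0.14 beside -0.01 and a range from -0.75 for MRPL57 to 0.73 for MRPL36. Quantile scaling gave 7 lower and 7 higher, and spike-in scaling gave 14 of 14 higher with a median of 0.87 beside 1.00 over all probes. No member passed by limma (0 of 14, beside 0% of all probes) and 0 of 14 had an unadjusted p under 0.05, beside 13.9%. In 3 of 14 probes, those of 2 genes (both of MRPL14 and that of MRPL57), the 24 h arrays lay wholly below those before feeding (21.4%), beside 19.0% of all probes; in none did they lie wholly above, beside 7.50%. The share of members that separated downwards was thus close to that of all probes. The median of -0.14 was -0.23 without replicate 3 at 24 h, -0.03 without replicate 1 at 24 h, -0.07 without replicate 2 at 24 h and -0.06 without replicate 3 before feeding.

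Between 6 h and 24 h the members differed in both directions. This comparison and the first share the 6 h arrays, so a low 6 h value enters both. At 24 h 9 of 14 were higher than at 6 h, with a median of 0.11 beside -0.09 over all tested probes, of which 56.3% were lower; with spike-in scaling 14 of 14 were higher, and quantile scaling gave 12 of 14. Without replicate 3 at 6 h the count turned to 8 lower and 6 higher (median -0.03), and it was 7 and 7 without replicate 1 at 6 h (median 0.02) or without replicate 3 at 24 h (median 0.01). With no filter, 12 of 24 were lower (median -0.02), and without replicate 2 at 6 h the median was 0.34. MRPL3 (1.23), MRPS9 (0.83) and MRPL15 (0.57) had the highest differences, and MRPL41 (-0.48) and the MRPL14 probes (-0.48 and -0.36) the lowest. By limma 0 of 14 passed, beside 0%, and 1 of 14 (MRPL3) had an unadjusted p under 0.05, beside 21.6%. The groups separated downwards in both MRPL14 probes, which stand for 1 gene (14.3%, beside 16.5%) and upwards in MRPL3 and MRPL15 (14.3%, beside 10.0%). Without replicate 2 at 6 h, MRPL3 and MRPS9 passed, beside 8.93% of all probes. Over the 3 times the lowest group mean fell at 6 h in 8 of 14 members, at 24 h in 5 and before feeding in 1; among all tested probes these shares were 32.3%, 33.6% and 34.1%.

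The arrays at 6 h did not behave alike. On replicate 2 at 6 h, 10 of 14 members had their highest value of that time, against 39.7% of all tested probes, and 11 of 14 lay above their own mean over the 9 arrays. On replicates 1 and 3 at 6 h, 4 and 5 of 14 lay above their own mean. The median deviation of the members was -0.33, 0.26 and -0.33 on replicates 1, 2 and 3 at 6 h, beside 0.33, -0.04 and 0.17 before feeding and -0.11, -0.12 and 0.25 at 24 h. At 24 h, replicate 3 held the highest value of 11 of 14 members, against 45.2% of all probes, and 19 of 24 member probes were above background there, against 14 to 16 on the other 8 arrays. Blood cell markers differed between the same arrays. Their levels are summed over genes on the linear scale, not in log2, so the brightest genes weigh most. The summed level of 5 monocyte markers was 148, 117.5 and 162.5 before feeding, 456.4, 332.2 and 923.3 at 6 h and 168.3, 183.6 and 397.9 at 24 h. That of 9 T cell markers was 165.7, 151.7 and 138.5, then 90.5, 108.8 and 43.4, then 107.4, 94.6 and 87.3. Of the 6 h arrays, monocyte markers were lowest and T cell markers highest on replicate 2, on which most members were highest. At 24 h the order differed: the monocyte sum was highest and the T cell sum lowest on replicate 3, on which most members were highest. By the median log2 level, T cell markers were instead highest on that array (2.09, 2.27 and 2.51 on replicates 1, 2 and 3). Against before feeding, 5 of the 9 T cell markers were lower at 24 h and 4 were higher (median difference -0.13). The summed level of 3 neutrophil markers was 172.1, 363.3 and 233.2 before feeding, 727.9, 566.8 and 1587 at 6 h and 208.0, 308.1 and 124.7 at 24 h. Their median log2 level was instead higher at 24 h (4.43, 4.46 and 5.24) than before feeding (3.17, 3.97 and 3.63), and highest on replicate 3. By group mean, 2 of these 3 markers were higher at 24 h than before feeding and 1 was lower. On replicates 1, 2 and 3 at 6 h, the summed level of 3 cytotoxic cell markers was 184.0, 416.6 and 139.5, and that of 5 platelet markers 143.4, 236.1 and 121.7. That of 8 markers of dividing cells was 101.7, 182.5 and 106.7 on the same arrays, and the linear level of the 1 red cell marker was 109.9, 170.9 and 91.9. Markers of these types, too, were highest on replicate 2, and neutrophil markers were lowest there. The 1 B cell marker was highest on replicate 1 at 6 h (1.07, 0.95 and 0.46). At 24 h the cytotoxic cell, platelet, dividing cell and red cell sums were lowest on replicate 3 (103.2, 78.6, 90.0 and 44.3). Before feeding they were lowest on replicate 1 (184.8, 48.7, 119.5 and 125.0), on which the members' median deviation was highest. By the median log2 level, both held only for platelet and red cell markers. The part of these cells in the members' values was not tested.

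**Figure D4:**
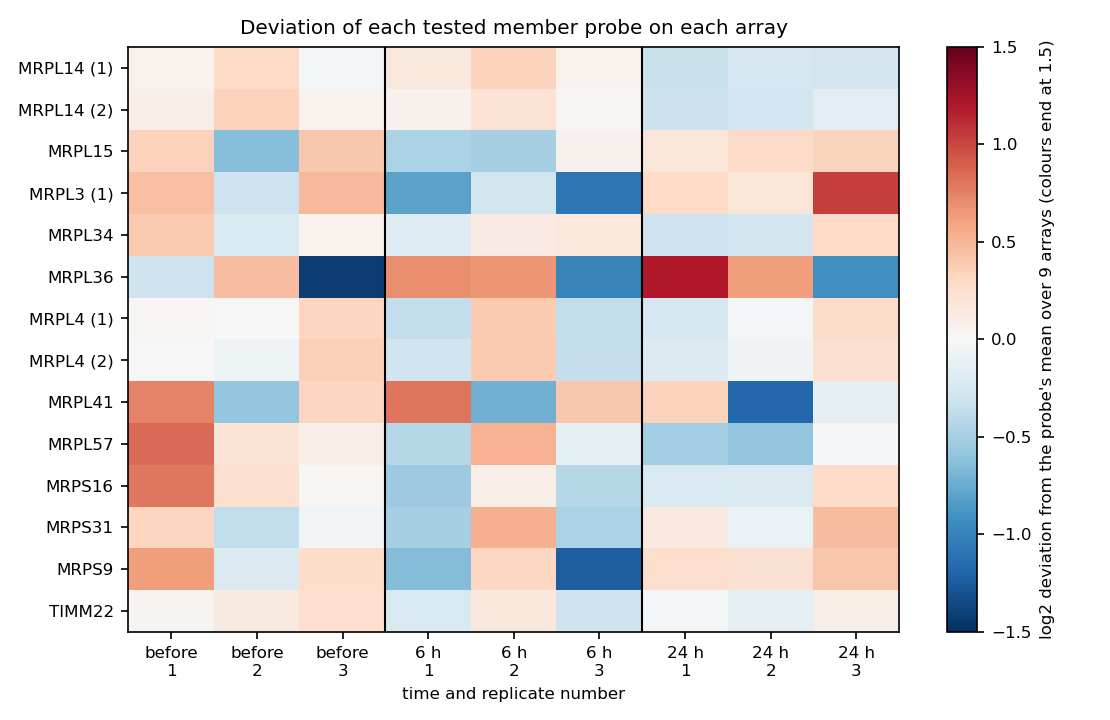
Deviation of each tested member probe (rows) from its own mean over the 9 arrays (columns, by time and replicate), in log2 units from blue (lower) to red (higher). Replicates 1 and 3 at 6 h are mostly blue and replicate 2 at 6 h mostly red, with medians of -0.33, -0.33 and 0.26; the MRPL14 rows are blue on all 3 arrays at 24 h.

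Other genes that serve the same machinery were followed from lists, with the brightest tested probe of each gene. Of 36 listed genes of mitochondrial translation factors and tRNA synthetases, only 4 had a tested probe. All 4 were lower at 6 h (median -0.53), beside 47.4% of all tested probes. RARS2 and VARS2, which load arginine and valine onto mitochondrial tRNAs, were lower by group mean by -1.28 ± 0.32 and -0.64 ± 0.28 (adjusted p = 0.0797 and 0.188, limma). In both all 6 h arrays lay below those before feeding, which happened in 10.6% of all tested probes. RARS2 was well above background on 2 of the 3 arrays at 6 h, so its difference rests in part on a reading at background. Of 39 listed genes of mitochondrial DNA upkeep and transcription, only 4 were tested. All 4 were lower at 6 h too (median -0.76) and all 4 higher at 24 h than at 6 h (median 0.90). At 24 h against 6 h, 56.3% of all tested probes were lower. SLIRP, which steadies mitochondrial messenger RNAs, read 2.60, 2.27 and 2.51 before feeding, 1.36, 1.37 and 1.22 at 6 h and 1.67, 1.77 and 2.40 at 24 h. Its 6 h arrays lay below all others, replicate 2 included (-1.14 ± 0.28, adjusted p = 0.0787, limma). LRPPRC, the partner of SLIRP, read 3.84, 2.80 and 3.55, then 1.97, 3.21 and 2.23, then 3.39, 3.28 and 4.37. Like MRPL3 and MRPS9, it was low on replicates 1 and 3 at 6 h and not on replicate 2. TFAM, which packs mitochondrial DNA, had differences of -0.39 ± 0.42 at 6 h and 0.62 ± 0.42 at 24 h. Spike-in scaling adds 0.23 to every 6 h difference and 1.01 to every 24 h difference from before feeding. With it, all tested genes of both lists were still lower at 6 h (medians -0.31 and -0.53).

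Of 26 listed mitochondrial chaperones and proteases, 6 were tested. At 6 h 4 of these were lower and 2 higher (median -0.24), and at 24 h 6 of 6 were lower (median -0.24). Spike-in scaling made all 6 higher at 24 h (median 0.77). Of all tested probes, 47.4% were lower at 6 h and 50.9% at 24 h. HSPA9, the chaperone that pulls imported proteins into the matrix, read 4.87, 4.34 and 4.70 before feeding, 3.92, 4.75 and 4.19 at 6 h and 4.29, 4.37 and 4.68 at 24 h. Its groups overlapped (-0.35 ± 0.30 at 6 h). HSPD1, the matrix folding chamber, had differences of 0.08 ± 0.27 and -0.39 ± 0.27. Of 17 genes listed under outer membrane import, 5 were tested. At 6 h 3 of the 5 were lower (median -0.24). These were TOMM7 (-0.59), MTX1 (-0.24) and VDAC3 (-0.31), while VDAC1 (0.14) and VDAC2 (0.36) were higher. The VDAC genes code for metabolite channels of that membrane, so this count and median do not describe protein import alone. Of 22 listed genes of inner membrane import, 2 were tested. TIMM22 was lower and ROMO1, by its brightest probe, higher (0.53 ± 1.36), for a median of 0.14. The other tested ROMO1 probes were all lower at 6 h (-0.40 ± 0.29, -0.24 ± 0.25 and -0.42 ± 0.28), so the sign of ROMO1 and this median depend on the probe taken. Over the longer lists of ribosome genes, 9 of 52 large subunit genes and 4 of 30 small subunit genes were tested. Of these, 7 of 9 and 4 of 4 were lower at 6 h (medians -0.18 and -0.38, or 0.05 and -0.15 with spike-in scaling). To the tested members these lists add only MRPL47 (-0.74 ± 0.48) and MRPS11 (-0.10 ± 0.24). No gene of these lists passed limma's test in any of the 3 comparisons. Proteins of the cytosolic ribosome had a larger median shift: 69 of 72 tested probes were lower at 6 h (median -0.68) and 66 of 72 at 24 h (median -0.60). Of these probes 52.8% and 63.9% lay wholly below before feeding, beside 10.6% and 19.0% of all probes. The 84 probes of this set, 72 of them tested, carry only 28 gene names, so they are not independent readings. None passed limma's test, and 58.3% and 38.9% had an unadjusted p under 0.05, beside 25.5% and 13.9% of all probes. With spike-in scaling the medians were -0.45 and 0.40. Whether that shift differs from the members' was not tested.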

How the data were processed

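RNA was isolated from blood kept in PAXgene tubes, and Cy3-labelled cRNA from 0.5 µg of RNA was hybridised to 1 array per sample, per the labels' protocols. Feature Extraction is given as version 10.5.1.1 per the file headers, but as 9.5.3.1 per the submitters' processing notes. The deposited scanner files hold spot intensity, background-subtracted and not scaled between arrays, per the file headers; the deposited series-wide values are linear intensity, and the sources used here do not give the authors' steps.

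Outlier spots were left out, spots of a probe averaged, and 7 probes dropped, leaving 43596. Levels are log2 intensity minus the array's 75th percentile. Time was the only term of a single fit over 9 arrays in limma 3.58.1 under R 4.3.3; p-values were adjusted by Benjamini-Hochberg over 19783 probes, with a threshold of 0.05. The fit was checked on simulated data. Members were named from descriptions; named members are the 2 brightest per class, the 3 highest and lowest per comparison, and genes whose probes differ in sign. The members and all gene and marker lists were chosen with earlier results of these data known. Alternatives were quantile, median and spike-in scaling, normexp (offset 50), 2 other filters, the series-wide values as deposited, a replicate block, other variance models, array weights, only the arrays compared, and leaving out each array. Deviations of same-numbered arrays had correlations from -0.20 to 0.64. No correlations of arrays with different numbers were set beside them, so these values do not decide the pairing. The numbers were not taken as pairs because the labels do not say what they stand for. Genome positions were not analysed here. Files were joined and plots drawn in Python 3.11.15 (matplotlib 3.10.9, numpy 2.4.6, pandas 2.3.3).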

Additional observations from a re-analysis of the deposited data

How the results depend on the processing

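At 6 h, 8 of 20 alternatives leave the gap between the medians of members and all probes at -0.25 by construction; in the other 12 it ran from -0.49 to -0.14. The number of members past the threshold stayed at 0 except with array weights and without replicate 2 at 6 h. Array weights gave 8, 2 and 4 members past the threshold in the 6 h, 24 h and later-against-earlier comparisons, with 9889, 5445 and 5769 of all probes called, and a median of -0.46 at 6 h. Spike-in scaling moved the medians at 24 h to 0.87 against before feeding and 0.88 against 6 h. Leaving out each array gave 0 to 1, 0 to 0 and 0 to 2 members past the threshold, and medians from -0.41 to -0.12, from -0.23 to -0.03 and from -0.03 to 0.34. With the replicate block the medians were -0.20, -0.14 and 0.11 and no member passed, while calls over all probes at 6 h went from 5 to 620; the pairing by number is not established. Other calls over all probes at 6 h ran from 0 to 8, except 659 with spike-in scaling, 2396 without replicate 2 at 6 h and 25 without replicate 3 at 24 h; at 24 h they were 6 with quantile scaling and 5896 with spike-in scaling, and 1767 at 24 h against 6 h without replicate 2 at 6 h. The cause was not tested. With 3 arrays a time, dim members (10 of 24 probes) could not be followed.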

Other observations

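ROMO1, a small inner membrane protein that helps the import channel TIM23, has 4 tested probes. One read 4.83, 4.98 and 4.81 before feeding, 4.51, 4.88 and 4.02 at 6 h and 4.38, 4.29 and 3.94 at 24 h, with all 24 h arrays below those before feeding (-0.67 ± 0.29, adjusted p = 0.346, limma). The probes with differences of -0.45 ± 0.25 and -0.66 ± 0.28 at 24 h separated in the same way. Such a separation downwards at 24 h happened in 19.0% of all tested probes. It happened in 1240 of the 3957 tested probes from the 80th percentile of mean signal up, where these ROMO1 probes lie. The remaining ROMO1 probe read from 3.82 to 9.20 before feeding and had a difference of 0.66 ± 1.36 at 24 h, so the 4 probes do not give 1 reading of the gene.

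Of 7 probes described as ribosomal RNA of the mitochondrion itself, 6 were tested, and 3 were lower and 3 higher at 6 h, from -1.33 ± 0.39 to 0.20 ± 0.24. None passed limma's test in any comparison, and 2 of 6 had all 6 h arrays below those before feeding, beside 10.6% of all probes.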
